A study of Mus musculus with 24 samples.

Results

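Described here are 35 genes of cholesterol and fatty acid synthesis, taken by name from the read count table. All 35 were present among its 24421 genes. They comprise 5 regulators, 7 enzymes of the mevalonate pathway, 11 enzymes that lead from farnesyl diphosphate to cholesterol, 1 sterol carrier, 8 enzymes of fatty acid and glycerolipid synthesis and 3 targets of the liver X receptors (LXR).

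CD8 and CD4 T cells had been sorted by flow cytometry from marrow, and the hosts were CByB6F1 mice in which immune-mediated bone marrow failure (BMF) had been set up. In BMF, T cells destroy the blood-forming tissue, as they are thought to do in human aplastic anaemia. The mice had been given cyclosporine (CSA, which blocks calcineurin), low dose ruxolitinib (RUX, which blocks the kinases JAK1 and JAK2), RUX+CSA, or no drug (untreated). Every group, untreated included, carried the disease, so no healthy level is given here. The mice were female and 2 to 5 months old, per the labels. Each of the 8 groups of cell type and treatment had 3 libraries, and each library was a pool of 2 to 3 mice. Pools carry the labels' numbers, 1 to 12 for CD8 and 13 to 24 for CD4.

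Cholesterol synthesis is under feedback control. When the membrane of the endoplasmic reticulum is poor in sterol, the escort protein Scap carries the precursors encoded by Srebf1 and Srebf2 to the Golgi, where they are cut and released as transcription factors that switch on sterol and fatty acid enzymes. Insig1 and Insig2 hold Scap back when sterol is plentiful, and LXR, which sense oxysterols, switch on exporters such as Abca1 and Abcg1. Activated T cells raise this synthesis to build membrane before they divide.

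Promoter windows running from 250 bases before to 50 bases after the RefSeq transcription start (GRCm38.p6) were found for 28 of the 35 genes, in 36 windows. A sterol regulatory element, the letters TCACNCCAC on either strand, lay in 1 of the 36 windows, or 2.78%, against 1.24% of all 32851 windows. That window belonged to Hmgcs1, the synthase at the second step of the mevalonate pathway, and the match ran from base -137 to base -129. The CCAAT box, bound by the factor NF-Y that works beside the Srebf proteins, lay in 23 of 36 windows, or 63.9%, against 37.4% of all windows. The LXR response element, searched as GGTCA, any 4 bases and AGGTCA, lay in 0 of the 36 windows and in 0.0213% of all windows. Shown are Hmgcs1, as the window with the sterol element, and Srebf2, Nsdhl, Ebp and Lpin1, the 4 genes with a window among the 5 whose transcripts were higher in CD8 cells under RUX+CSA. Capitals mark TCACNCCAC, CCAAT or its reverse complement ATTGG. The 5 windows held 4, 1, 4, 2 and 0 CCAAT boxes in the order shown. The Lpin1 window lies upstream of the counted exons, which span chr12:16535669-16589770, so it is not the start of the counted gene.
Hmgcs1 (chr13:119690101-119690400, plus strand): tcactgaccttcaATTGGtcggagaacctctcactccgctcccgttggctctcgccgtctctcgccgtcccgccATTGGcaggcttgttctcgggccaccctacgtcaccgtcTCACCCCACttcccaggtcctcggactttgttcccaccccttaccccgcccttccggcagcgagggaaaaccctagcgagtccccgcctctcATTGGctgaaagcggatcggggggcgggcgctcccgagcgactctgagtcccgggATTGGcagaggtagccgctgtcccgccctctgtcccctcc
Srebf2 (chr15:82147019-82147318, plus strand): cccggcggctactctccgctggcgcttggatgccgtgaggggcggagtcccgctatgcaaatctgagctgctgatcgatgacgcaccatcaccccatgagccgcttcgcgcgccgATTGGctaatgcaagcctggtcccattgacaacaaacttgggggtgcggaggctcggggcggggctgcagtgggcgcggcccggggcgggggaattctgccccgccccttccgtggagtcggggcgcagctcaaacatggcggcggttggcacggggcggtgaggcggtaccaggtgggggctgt
Nsdhl (chrX:72918271-72918570, plus strand): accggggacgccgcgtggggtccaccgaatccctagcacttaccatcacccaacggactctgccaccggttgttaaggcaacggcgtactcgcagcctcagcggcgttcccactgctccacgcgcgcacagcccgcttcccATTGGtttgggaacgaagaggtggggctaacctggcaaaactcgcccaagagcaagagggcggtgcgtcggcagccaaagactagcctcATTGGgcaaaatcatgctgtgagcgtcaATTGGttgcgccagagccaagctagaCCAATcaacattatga
Ebp (chrX:8193463-8193762, minus strand): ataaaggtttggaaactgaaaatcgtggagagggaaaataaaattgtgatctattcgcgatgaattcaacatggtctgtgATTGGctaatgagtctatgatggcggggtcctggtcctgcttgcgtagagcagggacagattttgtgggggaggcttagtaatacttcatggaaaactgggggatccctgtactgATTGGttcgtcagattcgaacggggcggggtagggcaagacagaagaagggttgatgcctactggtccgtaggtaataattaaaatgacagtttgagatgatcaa
Lpin1 (chr12:16610917-16611216, minus strand): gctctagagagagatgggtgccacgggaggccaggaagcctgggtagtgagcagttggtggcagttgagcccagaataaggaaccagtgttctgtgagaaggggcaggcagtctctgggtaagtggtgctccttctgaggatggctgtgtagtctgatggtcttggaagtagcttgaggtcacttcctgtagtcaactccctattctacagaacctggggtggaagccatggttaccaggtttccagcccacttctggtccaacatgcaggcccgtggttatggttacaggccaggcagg

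The libraries held 16.9 to 34.6 M (mega) counted read pairs, so that 3 read pairs, the floor used here, stood for 0.0868 to 0.177 CPM (counts per M read pairs). Cd8a lay between 738 and 1145 CPM in CD8 and between 1.19 and 8.13 CPM in CD4 libraries, and Cd4 between 0.400 and 1.16 CPM in CD8 and between 1191 and 1718 CPM in CD4 libraries. RNA of other marrow cells was present in uneven amounts. The summed level of 14 neutrophil markers in CD8 libraries was 4158 to 5469 CPM under RUX+CSA and 13.3 to 1487 CPM in untreated pools, where up to 7 of the 14 were at 0. In CD8 libraries, 2 single-drug pools went with the other drug. The killer cell receptor gene Klrc1 stood at 1084 and 1297 CPM in CSA pools 4 and 5 and at 1241 CPM in RUX pool 7, but at 350 CPM in CSA pool 6 and at 363 and 370 CPM in RUX pools 8 and 9. The cause was not tested, and results that rest on CSA pool 6 and RUX pool 7 are given with and without them.

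Per unit of transcript length, the members spanned a wide range. Acly, the citrate lyase that supplies acetyl-CoA in the cytosol, had the highest level, at 102 ± 7.21 RPKM (read pairs per kilobase of exon per M) in CD8 and 87.2 ± 7.44 RPKM in CD4 libraries (SD, n = 12 each). Ebp, a sterol isomerase, followed with 44.3 ± 4.36 RPKM in CD8 and 44.8 ± 3.88 RPKM in CD4. Srebf2, the regulator that acts mainly on cholesterol genes, averaged 28.5 ± 3.73 RPKM in CD8 and 29.5 ± 5.11 RPKM in CD4, and Srebf1, which acts mainly on fatty acid genes, 27.1 ± 2.24 RPKM in CD8 and 23.9 ± 2.15 RPKM in CD4. Within the mevalonate arm the kinase Mvk was lowest, with 1.86 ± 0.352 RPKM in CD8 and 2.53 ± 0.610 RPKM in CD4, and Fdps, which makes farnesyl diphosphate, was highest, with 20.4 ± 3.67 RPKM in CD8 and 20.4 ± 3.48 RPKM in CD4. The 2 stearoyl-CoA desaturases, related enzymes, differed in level. Scd2 stood at 15.9 ± 3.03 RPKM in CD8 and 14.5 ± 3.42 RPKM in CD4, and Scd1 at 0.101 ± 0.174 RPKM in CD8 and 0.185 ± 0.379 RPKM in CD4. Abca1, the exporter that loads cholesterol onto apolipoprotein A-I, was next to last.

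**Figure D1:**
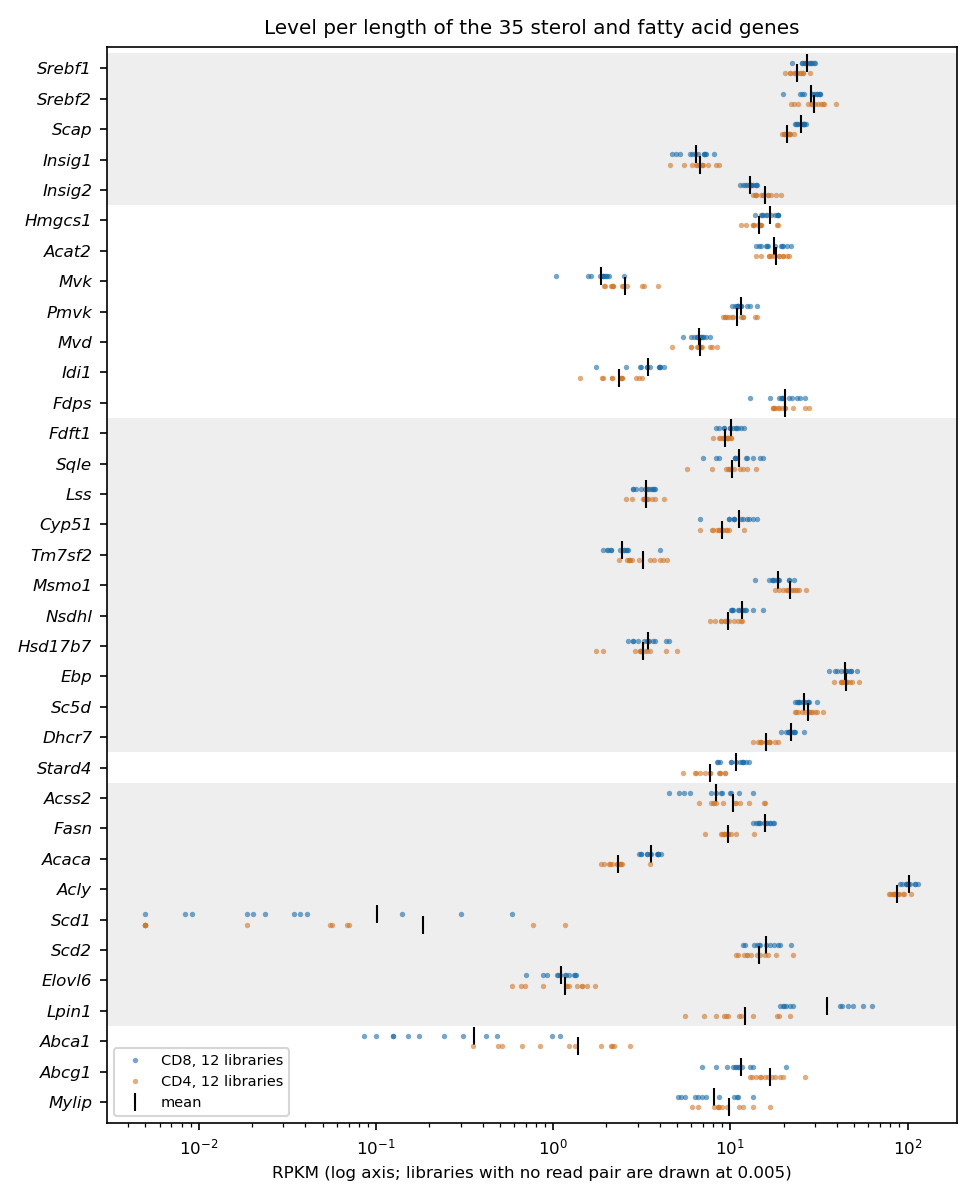
Level per length (RPKM, log axis) of the 35 genes, with 1 point per library in CD8 (blue, upper) and CD4 (orange, lower) cells and a black bar at the mean of 12 libraries. Acly lies highest, near 102 RPKM in CD8 and 87.2 RPKM in CD4, while Scd1 and Abca1 lie lowest and scatter most.

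Across the 24 libraries the highest stood less than 2-fold above the lowest for 15 members and 2-fold or more for 19, and Scd1 had libraries at 0. The highest library stood 1.38-fold above the lowest for Scap and 1.43-fold for Sc5d, the desaturase near the end of the sterol arm. Among the members with read pairs in every library, Abca1 varied most, at 31.9-fold, followed by Lpin1 at 11.3-fold. Lpin1 encodes a phosphatidate phosphatase of glycerolipid synthesis that can also act as a nuclear coactivator.

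The cell types differed first. Over all treatments, 12 of the 35 members were higher and 6 lower in CD8 than in CD4 cells by edgeR's quasi-likelihood test, that is 51.4% of the members against 53.8% of all 13476 genes tested, so the share of members that differed was close to the background. The genes that build fatty acids and glycerolipids made up 4 of the 12 higher calls, and none of this group of 8 was lower. Fasn, the fatty acid synthase, ranged from 133 to 176 CPM around a median of 157 CPM in CD8, against 71.5 to 136 CPM around a median of 92.9 CPM in CD4. The 2 ranges met only at their edge, and the log2 difference was 0.69 (SE 0.075, adjusted p = 1.42e-07). Acaca, the acetyl-CoA carboxylase that makes malonyl-CoA, ranged from 27.7 to 36.7 CPM with a median of 32.1 CPM in CD8, against 16.8 to 31.8 CPM with a median of 20.7 CPM in CD4 (log2 0.62, SE 0.086, adjusted p = 4.33e-06). Lpin1 differed most among the members called higher, with 110 to 359 CPM and a median of 184 CPM in CD8, against 31.9 to 124 CPM and a median of 59.8 CPM in CD4 (log2 1.53, SE 0.17, adjusted p = 9.48e-07). Acly was also higher (log2 0.22, SE 0.040, adjusted p = 1.17e-04).

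In the sterol arm, Dhcr7, the reductase of the last step of one route to cholesterol, ranged from 54.7 to 73.8 CPM in CD8, against 37.9 to 52.1 CPM in CD4 (log2 0.47, SE 0.050, adjusted p = 1.22e-07). With Scap, it was 1 of 2 members for which all 12 CD8 libraries lay above all 12 CD4 libraries. How many of all genes were separated like this was not counted, so the separation is not shown to be particular to these members. Scap ranged from 99.1 to 115 CPM in CD8, against 83.7 to 98.1 CPM in CD4 (log2 0.25, SE 0.036, adjusted p = 6.05e-06). Idi1, the isopentenyl diphosphate isomerase, and Stard4, the sterol carrier, were higher in CD8 by 0.52 (SE 0.12) and 0.47 (SE 0.089) on the log2 scale. Hmgcs1, Srebf1, Nsdhl and Cyp51 were higher in CD8 too, by 0.20, 0.18, 0.26 and 0.31 on the log2 scale. Lower in CD8 were Insig2 (log2 -0.28), Mvk (log2 -0.44), the sterol reductase Tm7sf2 (log2 -0.41) and the methylsterol oxidase Msmo1 (log2 -0.25). The members of one arm therefore did not move one way: Idi1 and Hmgcs1 were higher and Mvk lower within the mevalonate pathway. Exons of Tm7sf2 share 9 bases with Vps51 on the same strand, and those of Srebf1 share 107 bases with Rai1 on the other strand, and counting used no strand option.

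The exporters were lower in CD8. Abca1 ranged from 0.878 to 11.2 CPM with a median of 2.14 CPM in CD8, against 3.61 to 28.03 CPM with a median of 13.1 CPM in CD4 (log2 -1.94, SE 0.35, adjusted p = 1.38e-04). Abcg1, which exports sterol to high density lipoprotein, ranged from 40.3 to 121 CPM with a median of 63.4 CPM in CD8, against 74.7 to 153 CPM with a median of 93.6 CPM in CD4 (log2 -0.58, SE 0.11, adjusted p = 1.16e-04). Macrophages express both exporters, and 11 of 13 macrophage and monocyte markers were lower in CD8 as well, with 1 higher. The summed level of the 3 complement C1q genes was 2.87 to 25.2 CPM in CD8 and 7.03 to 270 CPM in CD4 libraries. All 18 calls between the cell types held when any 1 of the 24 libraries was left out and in a fit with the level of neutrophil, erythroid and B cell markers as a covariate. That covariate holds no macrophage markers, so the part of macrophages in the exporter values was not tested. In the untreated pools alone, 5 of 35 members (14.3%) were called, against 17.2% of all genes. These were Acaca, Dhcr7, Fasn, Lpin1 and Stard4, all higher in CD8, with log2 differences of 0.80, 0.41, 0.59, 1.39 and 0.59. Without CD4 untreated pool 14 the number fell to 2, as Stard4, Lpin1 and Dhcr7 had adjusted p of 0.0853, 0.0631 and 0.0596. The Stard4 call also ended without CD8 untreated pools 1 or 3 or CD4 untreated pool 15 (adjusted p = 0.0690 to 0.129).

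**Figure D2:**
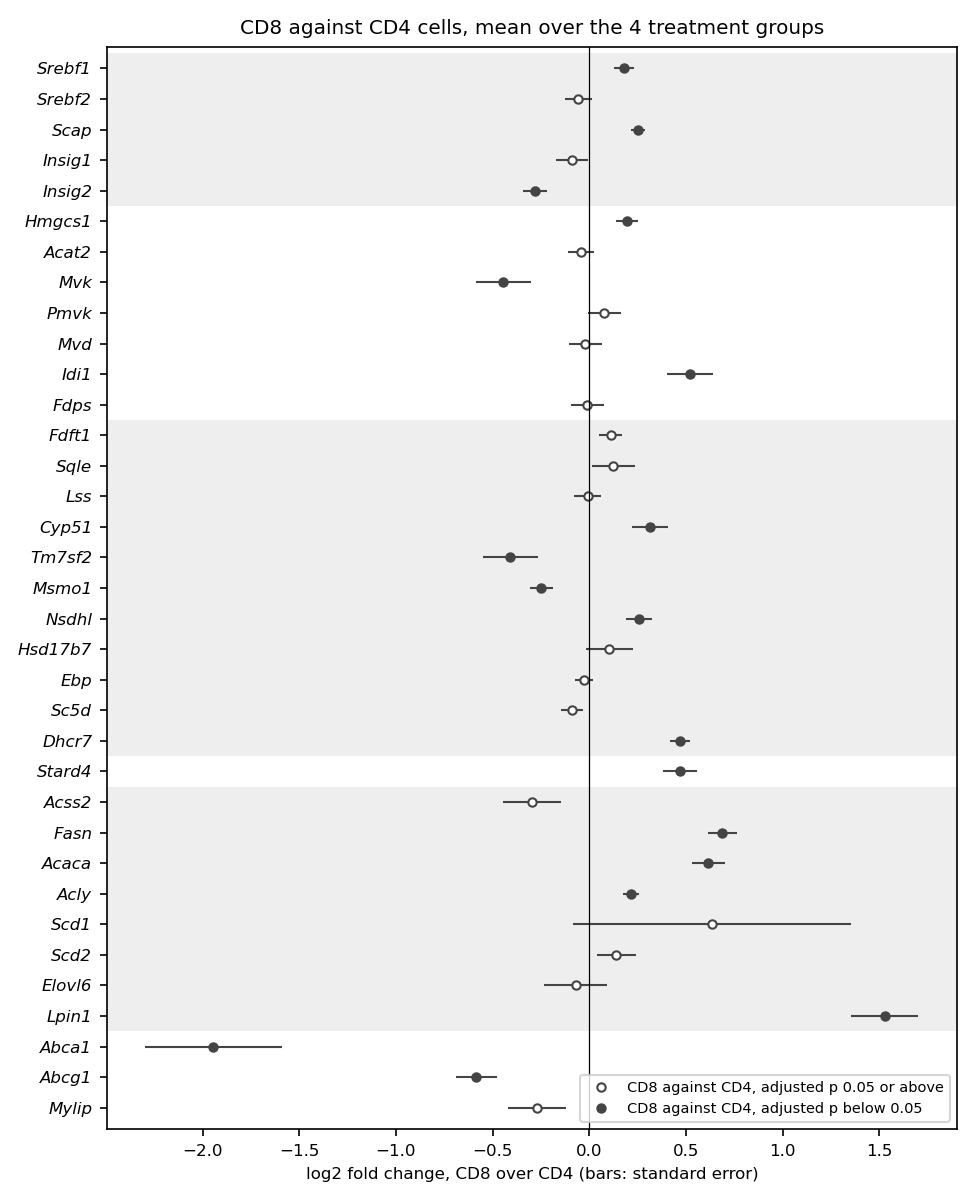
Log2 fold change of CD8 over CD4 cells for each member, averaged over the 4 treatment groups, with bars for the standard error (24 libraries). Filled points passed an adjusted p of 0.05: 12 lie to the right, with Lpin1 farthest at 1.53, and 6 to the left, with Abca1 farthest at -1.94.

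Treatment was examined within each cell type. In CD8 cells, RUX+CSA changed 7 of 35 members against untreated, 5 higher and 2 lower (edgeR, 20% of the members against 15.7% of the 12684 genes tested). The median log2 fold change was 0.15 over the members and -0.02 over all genes. All 3 RUX+CSA pools lay above all 3 untreated pools for 12 members and below them for 7. The share of all genes separated in this way was not counted, so these counts cannot be read as a trait of the members. By edgeR, 17 of 35 members had an unadjusted p below 0.05, against 4270 of 12684 genes. The 7 called members were Srebf2 among the regulators, Acat2 in the mevalonate pathway, Nsdhl and Ebp in the sterol arm, Lpin1 and Scd1 in lipid synthesis, and Abcg1 among the LXR targets. With 20% of the members called against 15.7% of all genes, this list describes single genes and not the pathway.

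Srebf2 stood at 147, 145 and 146 CPM in CD8 RUX+CSA pools 10, 11 and 12, against 117, 90.5 and 114 CPM in untreated pools 1, 2 and 3. The groups did not overlap, and the log2 fold change was 0.44 (SE 0.097, adjusted p = 0.0160). The call was lost without untreated pool 2 (adjusted p = 0.0554) and without RUX+CSA pool 10 (adjusted p = 0.0557). The other regulators were not called. Srebf1 had 115, 112 and 129 CPM in RUX+CSA, against 109, 95.8 and 113 CPM in untreated pools, and Insig1, itself a target of the Srebf proteins, 19.0, 18.8 and 16.7 CPM against 12.5, 13.0 and 16.0 CPM. The Insig1 pools were fully apart, with all RUX+CSA pools higher. Scap differed by 0.01 and Insig2 by -0.11 on the log2 scale.

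In the mevalonate pathway, Acat2, the cytosolic thiolase that joins acetyl-CoA units at the first step, fell to 31.1, 30.2 and 28.9 CPM in CD8 RUX+CSA pools, against 45.9, 40.8 and 36.9 CPM in untreated pools (log2 -0.47, SE 0.12, adjusted p = 0.0241). Every RUX+CSA pool lay below every untreated pool, and the call was lost without any 1 of untreated pools 1 and 2 and RUX+CSA pools 10, 11 and 12 (adjusted p = 0.0569 to 0.0771). Fdps had 36.1, 34.7 and 28.6 CPM in RUX+CSA, against 27.4, 18.8 and 24.3 CPM in untreated pools, all higher but not called (log2 0.48, SE 0.16, adjusted p = 0.0542). In the sterol arm, Nsdhl, a decarboxylating sterol dehydrogenase, rose to 34.0, 29.7 and 26.7 CPM in RUX+CSA pools, against 22.8, 22.7 and 22.9 CPM in untreated pools (log2 0.39, SE 0.11, adjusted p = 0.0341). Leaving out any 1 of untreated pools 1 to 3 or RUX+CSA pools 10 and 11 ended that call (adjusted p = 0.0752 to 0.123). Ebp rose to 90.5, 84.0 and 77.8 CPM in RUX+CSA pools, against 73.9, 63.2 and 67.8 CPM in untreated pools (log2 0.29, SE 0.082, adjusted p = 0.0366). Its call ended without untreated pools 2 or 3, RUX pool 8, or RUX+CSA pools 10 or 11 (adjusted p = 0.0503 to 0.132). Of the 18 genes of the mevalonate and sterol arms together, 14 had a log2 fold change above 0 and 4 below 0, but only these 3 passed the test, and 1 of the 3 fell.

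Lpin1 showed a wide separation in CD8 cells. It rose to 282, 322 and 359 CPM in RUX+CSA pools, against 116, 118 and 125 CPM in untreated pools (log2 1.41, SE 0.36, adjusted p = 0.0287). The lowest treated pool was far above the highest untreated pool, yet the call ended without any 1 of these 6 libraries (adjusted p = 0.0549 to 0.0939) and without the filter on low counts (adjusted p = 0.0514). Scd1 was called higher on few read pairs. Its level was 2.83, 1.45 and 0.0908 CPM in RUX+CSA pools, against 0.0405, 0.115 and 0.0443 CPM in untreated pools (log2 4.41, SE 1.31, adjusted p = 0.0431), and the groups overlapped. This came to 117 read pairs in the RUX+CSA group and 4 in the untreated group, a ratio of CPM of 21.2 with a 95% interval of 8.06 to 79.0 for counting error only. RUX+CSA pool 10 held 83 of the 117, and without it the ratio was 9.59 (3.42 to 37.2). Of the 34 read pairs then left, pool 11 held 31 and pool 12 held 3. The summed level of 10 B cell markers followed the same order over those RUX+CSA pools, at 69.9, 49.4 and 27.1 CPM, with 5.95 to 14.0 CPM in untreated pools. Its part in the Scd1 values was not tested. The Scd1 call ended without any of 8 single libraries (adjusted p = 0.0551 to 0.157), without the filter (adjusted p = 0.0513) and with limma-voom (adjusted p = 0.242).

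Abcg1 fell to 40.3, 48.6 and 62.2 CPM in CD8 RUX+CSA pools, against 77.7, 121 and 75.4 CPM in untreated pools (log2 -0.87, SE 0.19, adjusted p = 0.0158). The groups were apart, and the call was lost without RUX+CSA pool 10 (adjusted p = 0.0723) or pool 11 (adjusted p = 0.0596). Abca1 pools were also apart, with 1.02, 1.55 and 0.878 CPM in RUX+CSA, against 2.47, 10.1 and 3.19 CPM in untreated pools, but Abca1 was not called. Mylip, a ubiquitin ligase that marks lipoprotein receptors for breakdown, had 15.8, 19.6 and 20.6 CPM in RUX+CSA and 25.8, 40.1 and 21.7 CPM in untreated pools and was not called either. The C1q sum was 2.87, 4.32 and 4.20 CPM in the RUX+CSA pools, against 10.8, 25.2 and 9.94 CPM in untreated pools, highest in the untreated pool that was also highest for Abcg1, Abca1 and Mylip. All 13 macrophage and monocyte markers together went the other way. They summed to 1005, 828 and 815 CPM in the RUX+CSA pools, against 285, 363 and 285 CPM in untreated pools. What macrophages added to these values was not tested. The fit described next takes in neutrophil, erythroid and B cell markers only.

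Markers of other cells moved with this comparison. In RUX+CSA against untreated CD8 libraries, 4 of 14 neutrophil, 7 of 9 erythroid, 5 of 8 B cell and 6 of 7 basophil and mast cell markers that could be tested were higher and none was lower, while macrophage and monocyte markers were split with 2 higher and 3 lower of 12. With the mean level of neutrophil, erythroid and B cell markers as a covariate, 0 of 35 members were called in edgeR (adjusted p = 0.763 to 0.970 over the 7 genes). The share of all genes called in that fit is not given here, so this 0 cannot be set against it. The fitted log2 fold change then was 0.08 for Srebf2, -0.05 for Abcg1 and 0.17 for Ebp, and it was 1.30 for Lpin1, 3.78 for Scd1, -0.33 for Acat2 and 0.32 for Nsdhl. Marker level and treatment ran together across these pools and cannot be told apart. The number of members called also depended on single libraries: 0 without RUX+CSA pool 10, 1 without untreated pool 2 or RUX+CSA pool 11, 3 without untreated pool 3 and 13 without RUX pool 7. The share of all genes called moved with it, and was 3.31%, 4.18%, 5.08%, 9.36% and 23% in those 5 fits, in the same order.

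**Figure D3:**
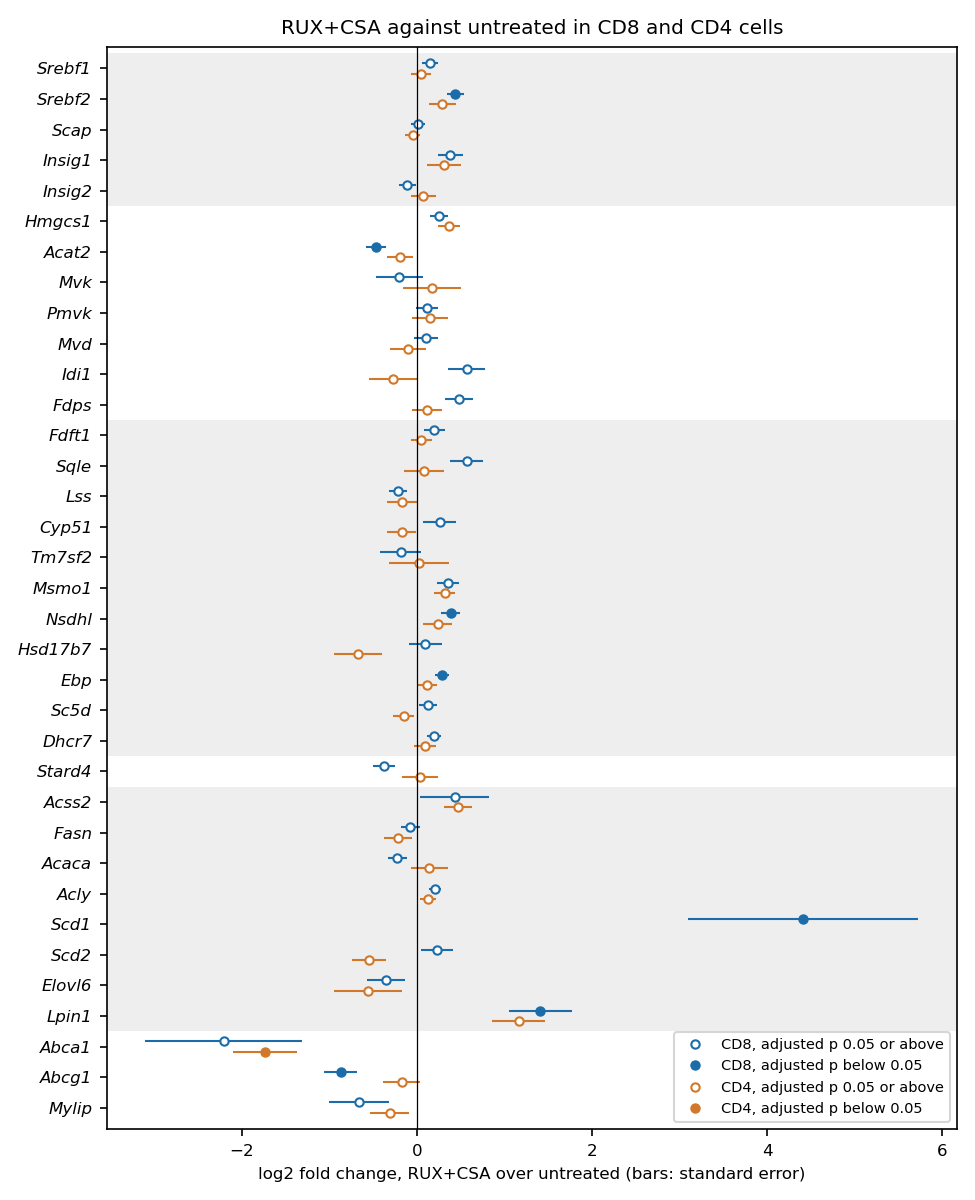
Log2 fold change of RUX+CSA over untreated for each member in CD8 (blue) and CD4 (orange) cells, with bars for the standard error (3 pools per group), and filled points where the adjusted p was below 0.05. In CD8 7 points are filled, and in CD4 only Abca1 at -1.74, and Scd1 has no CD4 point because it was too low to be tested there.

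Neither drug alone gave a called member in CD8 cells. For CSA against untreated, edgeR called 0 of 35 members, with 0% of all genes called, and DESeq2 and limma-voom also called 0. In edgeR 6 of 35 members, against 1233 of 12684 genes, had an unadjusted p below 0.05. For RUX against untreated the number was 0 with all 3 tools, again with 0% of all genes called. Here 5 of 35 members, against 744 of 12684 genes, had an unadjusted p below 0.05 in edgeR. Several values nevertheless lay on one side. Srebf2 stood at 138, 142 and 133 CPM in CSA pools 4, 5 and 6 and at 140, 133 and 119 CPM in RUX pools 7, 8 and 9, all above the 3 untreated pools given above, with log2 fold changes of 0.36 (SE 0.097, adjusted p = 0.413) and 0.29 (SE 0.097, adjusted p = 0.677). Abcg1 stood at 60.4, 64.0 and 64.8 CPM in CSA pools and 67.8, 55.4 and 62.8 CPM in RUX pools, all below every untreated pool (log2 -0.53 and -0.56, adjusted p = 0.451 and 0.685). Both comparisons share the untreated pools.

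Lpin1 and Acss2 in the CD8 single-drug pools did not follow the labels. Acss2 makes acetyl-CoA from acetate. Lpin1 had 239 and 244 CPM in CSA pools 4 and 5 and 265 CPM in RUX pool 7, but 113 CPM in CSA pool 6 and 110 and 130 CPM in RUX pools 8 and 9. Acss2 had 25.5 and 31.7 CPM in CSA pools 4 and 5 and 38.2 CPM in RUX pool 7, but 12.7 CPM in CSA pool 6 and 16.7 and 15.6 CPM in RUX pools 8 and 9. This is the division seen in Klrc1 above. A factorial view set the 6 CD8 pools given CSA, alone or with RUX, against the 6 without it. There edgeR called 0 of 35 members (2.36% of all genes), limma-voom 0 and DESeq2 6. The share of all genes called by DESeq2 is not given here or below, so its counts of members cannot be set against that share. In edgeR 9 of 35 members, against 3043 of 12684 genes, had an unadjusted p below 0.05. For the 6 pools given RUX against the 6 without it, edgeR called 0 members (0.56% of all genes), limma-voom 0 and DESeq2 1. An unadjusted p below 0.05 in edgeR was found for 11 of 35 members, against 1995 of 12684 genes.

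With CSA pool 6 and RUX pool 7 left out, several counts in CD8 cells were larger, for members and for all genes alike. These 2 pools were picked for values that went against their labels, so the counts describe the remaining 10 libraries and are not independent of Lpin1 and Acss2. CSA against untreated then had 3 called members, Lpin1, Hmgcs1 and Srebf2, with 4.81% of all genes called. RUX+CSA against RUX had 3, Lpin1 and Acss2 higher and Acat2 lower, with 11.6% of all genes called. RUX+CSA against untreated had 17 called members, 12 higher and 5 lower, with 30.4% of all genes called. They included the 7 named above, and added Acly, Idi1, Hmgcs1, Sqle, Fdps, Insig1 and Msmo1 as higher and Mylip, Stard4 and Abca1 as lower. The pools given CSA against those without it had 5 called members, Lpin1, Hmgcs1, Srebf2 and Acss2 higher and Acat2 lower, with 21.9% of all genes called. The pools given RUX against those without it had 2, Mylip and Abca1, both lower (log2 -0.79, SE 0.16, and -2.03, SE 0.39), with 1.91% of all genes called. Other counts of members did not rise. RUX against untreated and the interaction of the drugs had 0 called members, with 0% of all genes called. RUX+CSA against CSA also had 0, with 0.859% of all genes called.

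In CD8 cells the combination was also set against each drug. RUX+CSA against CSA had 0 called members by edgeR, DESeq2 and limma-voom (0.0788% of all genes by edgeR). At an unadjusted p below 0.05 in edgeR were 4 of 35 members, against 1593 of 12684 genes. RUX+CSA against RUX had 0 by edgeR and limma-voom (0% of all genes by edgeR) and 1 by DESeq2, whose share of all genes is not given. At an unadjusted p below 0.05 in edgeR were 6 of 35 members, against 2198 of 12684 genes. The interaction of the 2 drugs had 0 by all 3 tools, with 0% of all genes called by edgeR. At an unadjusted p below 0.05 in edgeR were 0 members, against 368 of 12684 genes.

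In CD4 cells, where 34 of the 35 members could be tested, 2 lipid genes were higher with CSA. The 6 pools given CSA, alone or with RUX, differed from the 6 without it in 2 of 34 members, both higher (edgeR, 5.88% of the members against 7.16% of all 13175 genes tested). Acss2 rose to 30.6, 44.6 and 43.7 CPM in CSA pools 16, 17 and 18 and 36.2, 30.2 and 32.2 CPM in RUX+CSA pools 22, 23 and 24, against 18.9, 22.7 and 23.0 CPM in RUX pools 19, 20 and 21 and 23.5, 22.0 and 25.6 CPM in untreated pools 13, 14 and 15. Every pool with CSA lay above every pool without it, and the log2 difference was 0.68 (SE 0.11, adjusted p = 0.00337). That call held when any 1 of the 12 CD4 libraries was left out, and it was lost with the marker covariate (log2 0.65, adjusted p = 0.0802). Exons of Acss2 share 113 bases with Acss2os on the other strand, whose read pairs cannot be told apart here. Markers of other cells moved with CSA too: of those tested, 3 of 9 erythroid, 2 of 9 B cell, 2 of 6 NK cell, 2 of 7 basophil and mast cell and 1 of 14 neutrophil markers were higher, and 2 of 13 macrophage and monocyte markers were lower.

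Lpin1 in CD4 cells rose to 53.9, 66.0 and 107 CPM in CSA pools and 124, 76.5 and 106 CPM in RUX+CSA pools, against 47.4, 55.7 and 52.9 CPM in RUX pools and 63.9, 31.9 and 40.9 CPM in untreated pools (log2 0.85, SE 0.21, adjusted p = 0.0394). CSA pool 16 lay within the range of the pools without CSA. The Lpin1 call ended without untreated pool 15, CSA pools 17 or 18, any of the 3 RUX pools, or RUX+CSA pools 22 or 24 (adjusted p = 0.0586 to 0.0950), without the filter on low counts (adjusted p = 0.0950) and with the marker covariate (adjusted p = 0.342). Against untreated pools alone, CSA changed 1 of 34 members, Acss2 (2.94%, against 1.48% of all genes; log2 0.74, SE 0.16, adjusted p = 0.0343). That narrower call was lost without any 1 of the 3 untreated pools, CSA pools 17 or 18 and RUX+CSA pools 23 or 24 (adjusted p = 0.0506 to 0.165), with limma-voom (adjusted p = 0.0582) and with the covariate (adjusted p = 0.221).

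An exporter was lower with RUX in CD4 cells. The 6 pools given RUX, alone or with CSA, differed from the 6 without it in 1 of 34 members, which was lower (edgeR, 2.94%, against 0.25% of all genes). Abca1 fell to 12.6, 6.84 and 5.27 CPM in RUX pools and 3.61, 8.69 and 4.99 CPM in RUX+CSA pools, against 22.1, 19.2 and 28.03 CPM in CSA pools and 13.6, 22.6 and 21.9 CPM in untreated pools (log2 -1.61, SE 0.26, adjusted p = 0.0224). All 6 pools with RUX lay below all 6 without it, and RUX pool 19 and untreated pool 13 came closest. The call ended without CSA pool 17, RUX pools 20 or 21, or RUX+CSA pools 22 or 24 (adjusted p = 0.0567 to 0.0723) and with the covariate (adjusted p = 0.0949). For this contrast 0 of 13 macrophage and monocyte markers were called by edgeR, and their summed level ranged from 638 to 1236 CPM in RUX and 1226 to 1558 CPM in RUX+CSA pools, against 990 to 2795 CPM in CSA and 668 to 1655 CPM in untreated pools. The C1q sum was 16.5 to 56.4 CPM in RUX and 7.03 to 21.6 CPM in RUX+CSA pools, against 24.2 to 49.5 CPM in CSA and 69.3 to 270 CPM in untreated pools. Its part in the Abca1 values was not tested. In these bulk libraries, fewer cells of a type and less RNA per cell cannot be told apart.

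The same gene was the only called member when RUX+CSA was set against untreated CD4 pools (1 of 34, with 1.77% of all genes called; log2 -1.74, SE 0.37, adjusted p = 0.0338) and against CSA (1 of 34, with 0.281% of all genes called; log2 -1.99, SE 0.37, adjusted p = 0.0388). In RUX+CSA against untreated, 6 of 13 macrophage and monocyte markers were lower too. These comparisons share the RUX+CSA pools. The first call was lost without untreated pools 14 or 15 or RUX+CSA pools 22 or 24 (adjusted p = 0.0548 to 0.116), with limma-voom (adjusted p = 0.0595) and with the covariate (adjusted p = 0.255). The second was lost without any of the 3 CSA or 3 RUX+CSA pools or RUX pool 20 (adjusted p = 0.0526 to 0.163), with limma-voom (adjusted p = 0.0784) and with the covariate (adjusted p = 0.0606). Scd1, which was too low to be tested in CD4 cells, had 3.73, 5.67 and 0 CPM in RUX+CSA pools and 0 in all 3 untreated pools. Its 264 read pairs in the RUX+CSA group were at least 90.6-fold above a floor of 3 read pairs over the untreated group. RUX+CSA pool 23 held 175 of them, pool 22 held 89 and pool 24 held 0. Without pool 23 the difference was at least 53.4-fold, and it then rested on pool 22 alone. B cell markers summed to 122, 74.1 and 35.2 CPM in those RUX+CSA pools, against 16.2 to 18.2 CPM in untreated pools. They were highest in pool 22 and Scd1 in pool 23, and their part in the Scd1 values was not tested.

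**Figure D4:**
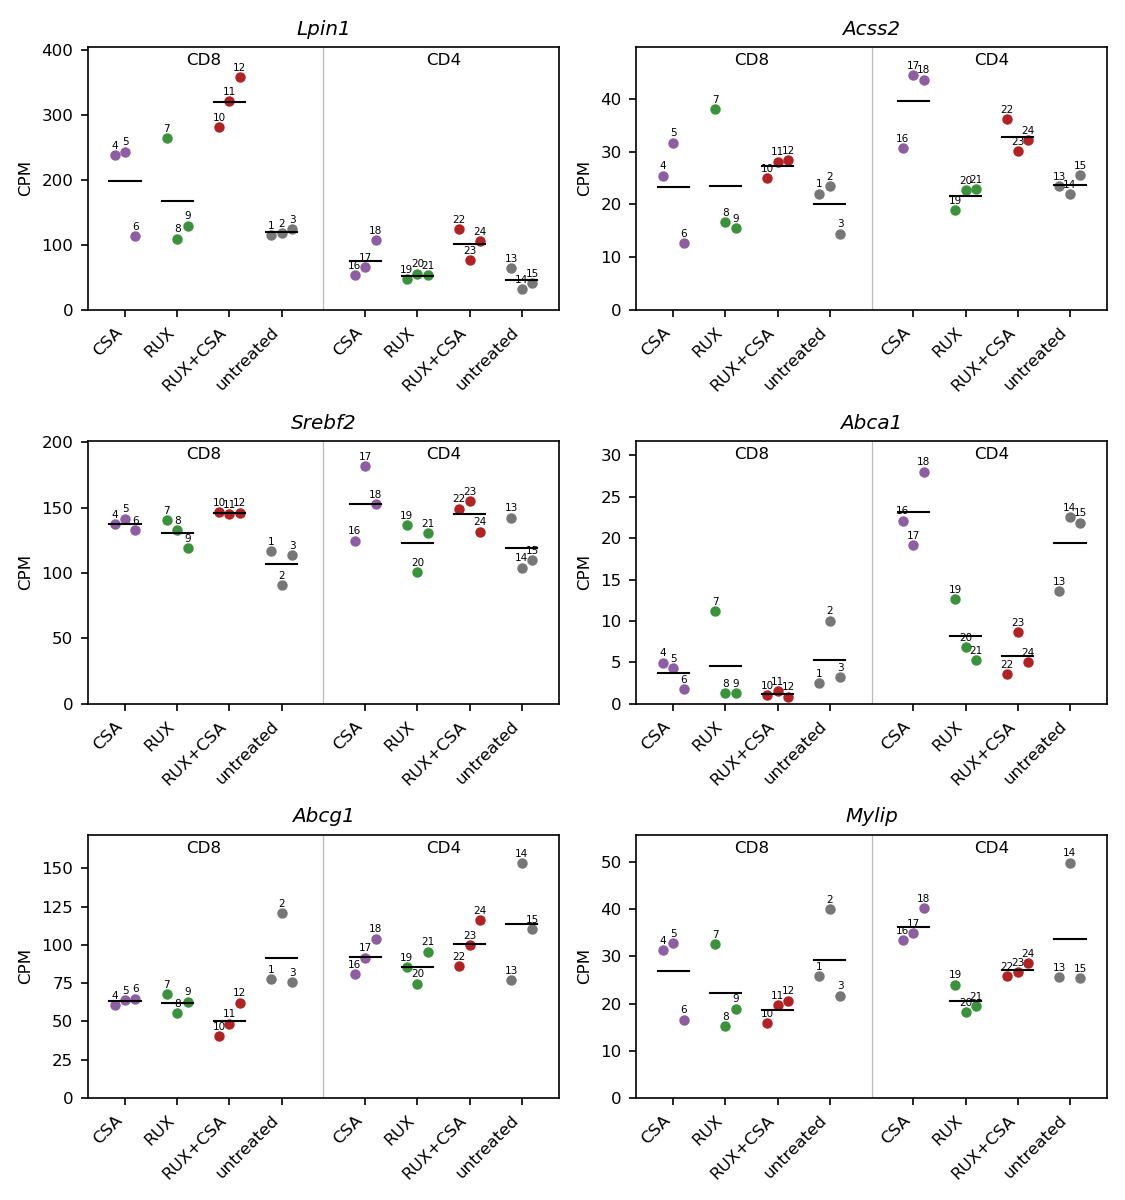
CPM of Lpin1, Acss2, Srebf2, Abca1, Abcg1 and Mylip in each of the 24 libraries, by treatment within CD8 and CD4 cells, with a point per pool marked by its pool number and a bar at the mean of 3 pools. CD8 CSA pool 6 and RUX pool 7 lie apart from their groups for Lpin1 and Acss2, and CD4 pools with RUX lie at 12.6 CPM or less for Abca1.

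For the remaining CD4 comparisons edgeR called no member. RUX against untreated had 0 of 34 with all 3 tools (0% of all genes by edgeR). At an unadjusted p below 0.05 in edgeR were 3 of 34 members, against 548 of 13175 genes. RUX+CSA against RUX had 0 by edgeR and limma-voom (0.782% of all genes by edgeR) and 2 by DESeq2, Lpin1 and Acss2, both higher. The share of all genes called by DESeq2 is not given. At an unadjusted p below 0.05 in edgeR were 4 of 34 members, against 1881 of 13175 genes. The interaction of the drugs had 0 with all 3 tools (0% of all genes by edgeR). At an unadjusted p below 0.05 in edgeR were 0 members, against 629 of 13175 genes. Srebf2 in CD4 cells was not called in any treatment comparison, and stood at 125, 182 and 153 CPM in CSA, 137, 101 and 131 CPM in RUX and 149, 155 and 132 CPM in RUX+CSA pools, against 142, 104 and 110 CPM in untreated pools.

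Whether a treatment effect differed between CD8 and CD4 cells was tested directly over the 35 members. With edgeR, the CSA effect had 0 called members (0% of all genes), the RUX effect 0 (0% of all genes) and the RUX+CSA effect 0 (0.0223% of all genes). At an unadjusted p below 0.05 were 0, 1 and 4 of the 35 members for CSA, RUX and RUX+CSA. Of all 13476 genes, 1005, 441 and 1906 were below that level in the same order. DESeq2 and limma-voom called 0 in each. The smallest adjusted p over members was 0.710, 1.00 and 0.260 for CSA, RUX and RUX+CSA. So a member called in one cell type and not in the other, such as Srebf2, was not shown to respond differently.

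Around these members, 6 wider lists of lipid genes were counted in the same fits. The list named for fatty acid elongation, desaturation and activation also holds genes of other steps, such as G6pdx and the citrate carrier Slc25a1. In CD8 RUX+CSA against untreated, where 15.7% of all genes were called, 11 of its 27 tested genes were higher and 0 lower. The median log2 fold change of the 27 was 0.27. The 3 with the smallest p were G6pdx, the NADPH-yielding dehydrogenase of the pentose phosphate pathway, with 152 ± 9.84 CPM in RUX+CSA and 87.4 ± 14.4 CPM in untreated pools (SD, n = 3 each; log2 0.79), Acsl1, an acyl-CoA synthetase (log2 1.21), and Hsd17b12, a reductase of fatty acid elongation (log2 0.59). Of the neutrophil markers, 4 of 14 were higher in this comparison, as given above, and Acsl1 is also expressed by neutrophils. Fatty acid oxidation had 0 higher and 3 lower of 24, among them Cpt1a, the carnitine transferase that admits fatty acids to mitochondria, with 171 ± 8.84 CPM in RUX+CSA and 227 ± 4.50 CPM in untreated pools (log2 -0.42, SE 0.075, adjusted p = 0.00809), and the carnitine carrier Slc25a20 (log2 -0.43). Triglyceride and phospholipid synthesis had 4 higher and 1 lower of 27, with Agpat4 and Agpat3 higher (log2 0.72 and 0.35) and the Lpin1 relative Lpin2 lower (log2 -0.59). Cholesterol uptake, transport and storage had 2 higher and 2 lower of 23, with Osbpl9, a sterol-binding protein, higher (log2 0.43) and Soat2, which esterifies cholesterol, lower (log2 -1.49). SREBP processing and LXR receptor genes had 2 higher and 0 lower of 21, among them Mlx (log2 0.41), and other mevalonate and isoprenoid genes had 0 higher and 1 lower of 16, the farnesyltransferase subunit Fntb (log2 -0.45).

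In CD4 cells given CSA against those without it, where 7.16% of all genes were called, the same 6 lists had 0 to 3 higher and 0 to 2 lower genes each. Cpt1a stood at 148 ± 10.5 CPM in the 6 pools with CSA and 202 ± 33.0 CPM in the 6 without it (SD; log2 -0.44, SE 0.067, adjusted p = 0.00176). Rxra, the partner of LXR (log2 0.61, adjusted p = 0.0403), and Nr1h2, which encodes one LXR (log2 0.29, adjusted p = 0.0461), were higher with CSA, in the contrast in which the other-cell markers counted above moved.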

How the data were processed

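Libraries were made with a SMART-Seq mRNA kit, per the labels' protocols. The deposited table holds raw counts of read pairs per gene, and per the file headers featureCounts 2.0.3 summed them over exons with no strand option. The submitters' processing notes name STAR and the build mm10. Counts were tested in edgeR 4.0.16 (R 4.3.3) with TMM factors, filterByExpr and the quasi-likelihood F test (robust option, group-means design), in 1 fit per cell type of 12 libraries (12684 genes in CD8, 13175 in CD4) and 1 fit of all 24 (13476 genes) for comparisons of cell types. Adjusted p-values are two-sided, by Benjamini-Hochberg over all genes of a fit, and were called below 0.05. Standard errors are from the F statistic. Member levels are CPM of TMM-scaled totals, RPKM divides them by the deposited exon length, and marker levels are CPM of all counted pairs. Alternatives were DESeq2 1.42.0, limma-voom (limma 3.58.1), other size factors, no filter, a marker covariate, 1 library left out, and CD8 CSA pool 6 and RUX pool 7 left out. Nothing in the labels says that pools were separate experiments, so p-values measure the spread between pools. Without molecular identifiers, read pairs can be copies of one molecule, so intervals and floors hold for counting error alone. The fit was tested on simulated data. Members, lists and named genes (members by role; up to 3 genes per wider list with the smallest p) were chosen with earlier results of these data known. Some genes of the wider lists are not reported here. Promoter windows are from RefSeq.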

Additional observations from a re-analysis of the deposited data

How the results depend on the processing

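The labels give no pool number to more than 1 group and tie no CD8 pool to a CD4 pool, and no paired analysis was run. Comparisons of the cell types treat all pools as unrelated. Deviations from the group means of CD8 pools and of the CD4 pools numbered 12 higher, over all genes tested, correlated at -0.144 to 0.562. They lay above 0.1 in 4 of 12 pairs, and at 0.316 to 0.562 in the 3 untreated pairs. Whether those pools came from the same mice was not tested, so values of CD8 and CD4 pools may not be independent. Of the 451 medians of the members' log2 fold changes under alternatives, 447 moved by less than a set limit. The limit was the within-group SD of the libraries' mean log2 CPM over members. It is not the spread of such a median, and a median near 0 can change sign within it. No called member changed sign under any alternative run, and the order of members by level was the same by RPKM and TPM for 35 of 35. Counts of called members moved more. Unless a share of all genes is given, the counts that follow were not set against that share. With DESeq2 they were 13 for CD8 RUX+CSA against untreated, 1 for CD8 RUX+CSA against RUX, 6 and 1 for the CD8 CSA and RUX main effects (pools with the drug against pools without it), and 2 each for CD4 RUX+CSA against untreated and against RUX. With the marker covariate they were 0 for CD8 RUX+CSA against untreated and 0 for CD4 CSA and RUX+CSA against untreated, RUX+CSA against CSA, and both CD4 main effects. With CD8 CSA pool 6 and RUX pool 7 left out they were 3 for CSA against untreated, 17 for RUX+CSA against untreated, 3 for RUX+CSA against RUX (11.6% of all genes), and 5 and 2 for the CSA and RUX main effects. Without the filter the CD4 CSA main effect had 1, and with limma-voom 0 were called for CD4 CSA and RUX+CSA against untreated and RUX+CSA against CSA. Leaving out 1 library gave 0 to 13 for CD8 RUX+CSA against untreated, 0 to 1 for CD8 RUX+CSA against RUX, 0 to 3 for the CD8 CSA main effect (3 without RUX pool 7), 0 to 1 for CD4 CSA against untreated, RUX+CSA against CSA and the RUX main effect, 0 to 2 for CD4 RUX+CSA against untreated (2 without untreated pool 13 or CSA pool 18), 1 to 3 for the CD4 CSA main effect (3 without untreated pool 14), 2 to 6 for CD8 against CD4 untreated and 18 to 21 over all treatments. The causes were not tested. With 3 pools per group, small changes of single members were often within the spread, and Scd1 and Abca1 rest on few read pairs in CD8.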

Other observations

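The wider lipid lists also differed between the cell types over all treatments, where 53.8% of all genes were called by edgeR. Among triglyceride and phospholipid synthesis genes 8 were higher and 12 lower in CD8 of 29 tested, with Agpat3 and the choline phosphotransferase Chpt1 higher (log2 0.53 and 1.01) and the lipid droplet coat gene Plin2 lower (log2 -1.02). Plin2 averaged 35.1 ± 4.49 CPM in CD8 libraries, against 71.4 ± 12.1 CPM in CD4 libraries (SD, n = 12 each). The list named for fatty acid elongation, desaturation and activation had 10 higher and 5 lower of 28, with the acyl-CoA synthetase Acsl4 higher (log2 0.38) and the citrate carrier Slc25a1 lower (log2 -0.52). Other mevalonate and isoprenoid genes had 8 higher and 2 lower of 16, with Nus1 and Lbr higher (log2 0.30 and 0.36) and the mitochondrial thiolase Acat1 lower (log2 -0.38). SREBP processing and LXR receptor genes had 3 higher and 7 lower of 21, and Rxra was lower in CD8 libraries, at 13.0 ± 5.96 CPM, against 37.9 ± 13.2 CPM in CD4 libraries. Markers of macrophages and monocytes were also lower in CD8, for 11 of 13, and markers of neutrophils for 11 of 14, and their part in these values was not tested.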
